A study of Mus musculus with 298 samples.

Results

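The genes described here are 10 genes of MHC class I and of the peptide transporter that serves it, followed week by week in the blood of mice with an inducible BCR-ABL leukaemia. They were chosen by name: the classical heavy chains H2-K1 and H2-D1, the light chain B2m, the Q region genes H2-Q4, H2-Q6 and H2-Q7, the T region genes H2-T22 and H2-T23, and the transporter genes Tap1 and Tap2. All 10 were among the 14605 genes measured, and all 10 passed the filter on low values. Apart from B2m, on chromosome 2 at 121977957 to 121983594, they lie within chromosome 17 of GRCm39. H2-K1 spans 34214987 to 34219321, Tap1 34405996 to 34416199, Tap2 34422501 to 34435829 and H2-D1 35481691 to 35486475. The Q genes lie between 35598586 and 35662749, and the T genes between 36340229 and 36353650.

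MHC class I molecules show peptides from inside a cell to CD8 T cells, and natural killer cells read their presence through inhibitory receptors. The heavy chain pairs with beta-2 microglobulin, encoded by B2m, in the endoplasmic reticulum. Proteasomes cut the peptides, Tap1 and Tap2 form the pump that carries them across the membrane, and tapasin, calreticulin and Pdia3 hold the empty molecule until a peptide binds. H2-K1 and H2-D1 are the classical molecules of C57BL/6 mice. H2-Q7 encodes Qa-2, H2-T23 encodes Qa-1, a ligand of the natural killer receptor pair Klrd1 and Klrc1, and H2-T22 encodes a ligand of gamma delta T cells. Nlrc5 and the Rfx proteins are transcriptional activators of these genes.

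All 20 mice were C57BL/6 animals of both sexes, 6 to 8 weeks old at the start, and all carried tTA+/- and BCR-ABL+/-, so the controls hold the transgene too. It stays silent on tetracycline water at 0.5 g/L and is switched on where the SCL-driven transactivator is made when the water is changed. The CML cohort (6 mice, 94 libraries) was taken off tetracycline for good. The TKI cohort (7 mice, 99 libraries) was off tetracycline and was given nilotinib, which blocks the BCR-ABL kinase, daily by gavage at 50 mg/kg for 4 weeks from week 6. The TOTO cohort (4 mice, 48 libraries) was off tetracycline for 6 weeks and on it again for 12. Tetracycline was never withdrawn in the control cohort (3 mice, 57 libraries). Up to week 6 the first 3 cohorts were treated alike and are called Tet-off mice. Each library is the blood of 1 mouse in 1 week. The labels give mononuclear cells as the tissue but whole blood as the source of the RNA, and the median library had 42.6% of its TPM in haemoglobin transcripts. The sources used here do not say whether the blood of week 6 preceded the change of treatment, and it is used as the level before it.

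The promoters are shown because H2-K1 and H2-D1, which moved apart in these data, carry closely related ones. Each sequence below is the 200 bases before the RefSeq start of the gene on its own strand in GRCm38.p6: chr17:34000348-34000547 (minus strand) for H2-K1, chr17:35262894-35263093 (plus) for H2-D1, chr17:35438955-35439154 (plus) for H2-Q7 and chr2:122147487-122147686 (plus) for B2m. The table held 9 of the 10 genes. H2-K1 has 2 starts in it. Capitals mark letters searched on both strands: GGGATTNCC of enhancer A (an NF-kB site), TTTCACTT of the interferon response element, TGACG of the X2 box, and ATTGG or its reverse CCAAT of the Y box, the last 2 being parts of the module that Nlrc5 acts through.

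H2-K1: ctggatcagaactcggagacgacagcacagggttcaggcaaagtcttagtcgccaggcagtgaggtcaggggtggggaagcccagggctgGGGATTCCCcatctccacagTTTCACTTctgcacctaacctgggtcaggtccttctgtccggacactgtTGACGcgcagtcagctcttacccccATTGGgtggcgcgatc

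H2-D1: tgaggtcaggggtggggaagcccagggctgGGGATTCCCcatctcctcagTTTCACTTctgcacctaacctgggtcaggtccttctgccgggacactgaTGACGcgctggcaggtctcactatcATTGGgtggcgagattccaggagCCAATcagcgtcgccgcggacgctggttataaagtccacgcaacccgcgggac

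H2-Q7: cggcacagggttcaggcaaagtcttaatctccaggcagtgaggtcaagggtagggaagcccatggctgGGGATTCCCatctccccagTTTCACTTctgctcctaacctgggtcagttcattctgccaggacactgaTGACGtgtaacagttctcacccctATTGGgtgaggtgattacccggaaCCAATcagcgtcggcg

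B2m: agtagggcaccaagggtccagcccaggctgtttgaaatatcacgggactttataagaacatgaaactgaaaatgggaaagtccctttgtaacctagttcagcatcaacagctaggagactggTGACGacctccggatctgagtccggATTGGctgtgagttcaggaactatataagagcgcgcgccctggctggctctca

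Within 250 bases before the start, H2-K1, H2-D1, H2-Q4 and H2-Q7 held all 4 motifs, while H2-Q6 held all but TGACG. B2m and Tap1 held TGACG and ATTGG, H2-T22 these 2 and TTTCACTT, and H2-T23 only ATTGG. These matches ignore the order of the motifs. Read toward the start, TGACG came before ATTGG in H2-K1, H2-D1, H2-Q7 and B2m. In H2-Q4 it came after the first ATTGG, and in H2-T22 and Tap1 after every ATTGG or CCAAT. Where H2-D1 has TGACG, H2-Q4 reads tgact and H2-Q6 tgacc, so neither has the match at that place. Of 32851 promoters in the table, 0.822% held GGGATTNCC, 1.36% TTTCACTT, 17.8% TGACG and 33.8% ATTGG. The windows of H2-K1 and H2-D1 were equal at 166 of 190 aligned bases (87.4%), those of H2-D1 and H2-Q6 at 191 of 248 (77%). These are the most alike of the 36 pairs when aligned without gaps. On that measure the window of H2-Q7 was equal at 54.5% of aligned bases to H2-D1 and 50.4% to H2-K1. H2-Q7 lacks a base right after GGGATTCCC that H2-K1 and H2-D1 have. An alignment without gaps cannot follow this shift, so these percentages understate how alike H2-Q7 is. The letters were chosen with these sequences in view, and a match is a description, not a binding site. Exact letters miss variants, so a promoter without a match, such as that of B2m, may still hold a related site.

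The same likeness runs through the transcripts and limits how far single genes can be told apart. Of the 31-base words in the annotated transcripts of H2-K1, 26.6% also occur in another gene, most of them in H2-D1 (15.3%), and of those of H2-D1 28.7%, with 16.8% in H2-K1. The shares were 42.8% for H2-Q4, 48% for H2-Q6, 38.2% for H2-Q7 and 46.9% for H2-T22, the last almost all with H2-T10 (43%). B2m shared none, Tap1 0.718% and Tap2 1.25%. Reads from shared words are divided between genes by estimate, so the separate levels of the Q genes and of H2-T22 are uncertain.

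TPM is a level per transcript length scaled to a common sum per library, and in blood that sum is set mostly by haemoglobin and the small RNA Rn7s2 (a median of 31.8%). Depth is unknown from TPM, and no counting error can be given. Levels and changes are therefore given on 2 scales: as deposited, and rescaled per library by a median-ratio size factor over 5313 genes. Changes are log2 changes of TPM + 1 with their standard errors, within mouse, and understate low genes. The test was limma over all genes with Benjamini-Hochberg adjustment, a gene passed at an adjusted p of 0.05, and every adjusted p below comes from it. Blood is a mixture, so fewer cells of a type and less RNA per cell cannot be told apart. Libraries of 1 mouse are not separate animals, and comparisons count mice. Human BCR-ABL was listed at 0 in 16 of 19 libraries of CML mouse 487, with a highest level of 0.409 TPM, against highest levels of 3.16 to 49.7 TPM in the other Tet-off mice. Control mice 488, 489 and 490 had highest levels of 0.716, 0 and 0.715 TPM, so mouse 487 lay within the range of control mice. It is counted among the Tet-off and CML mice, and results that rest on this mouse are given without it as well. The week 17 library of control mouse 490 stood apart, with 2552 genes at 1 TPM, and enters no comparison.

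In control blood at week 0, B2m was the most abundant of the 10 at 767 ± 254 rescaled TPM (SD, n = 3), followed by H2-K1 at 335 ± 10.3, H2-D1 at 243 ± 10.9 and H2-T23 at 54.1 ± 3.38. H2-Q7 (39.5 ± 2.43, lowest mouse 38.1) lay just above H2-Q6 (36.9 ± 1.07, highest mouse 37.9), and H2-Q4 followed at 30.9 ± 1.04. Tap1 stood at 21.8 ± 1.47, H2-T22 at 17.2 ± 2.18 and Tap2 at 10.7 ± 0.99, with no overlap between these 3. As deposited the control mice spread far more widely: H2-K1 ran from 288 to 708 TPM, against 324 to 345 rescaled TPM.

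**Figure D1:**
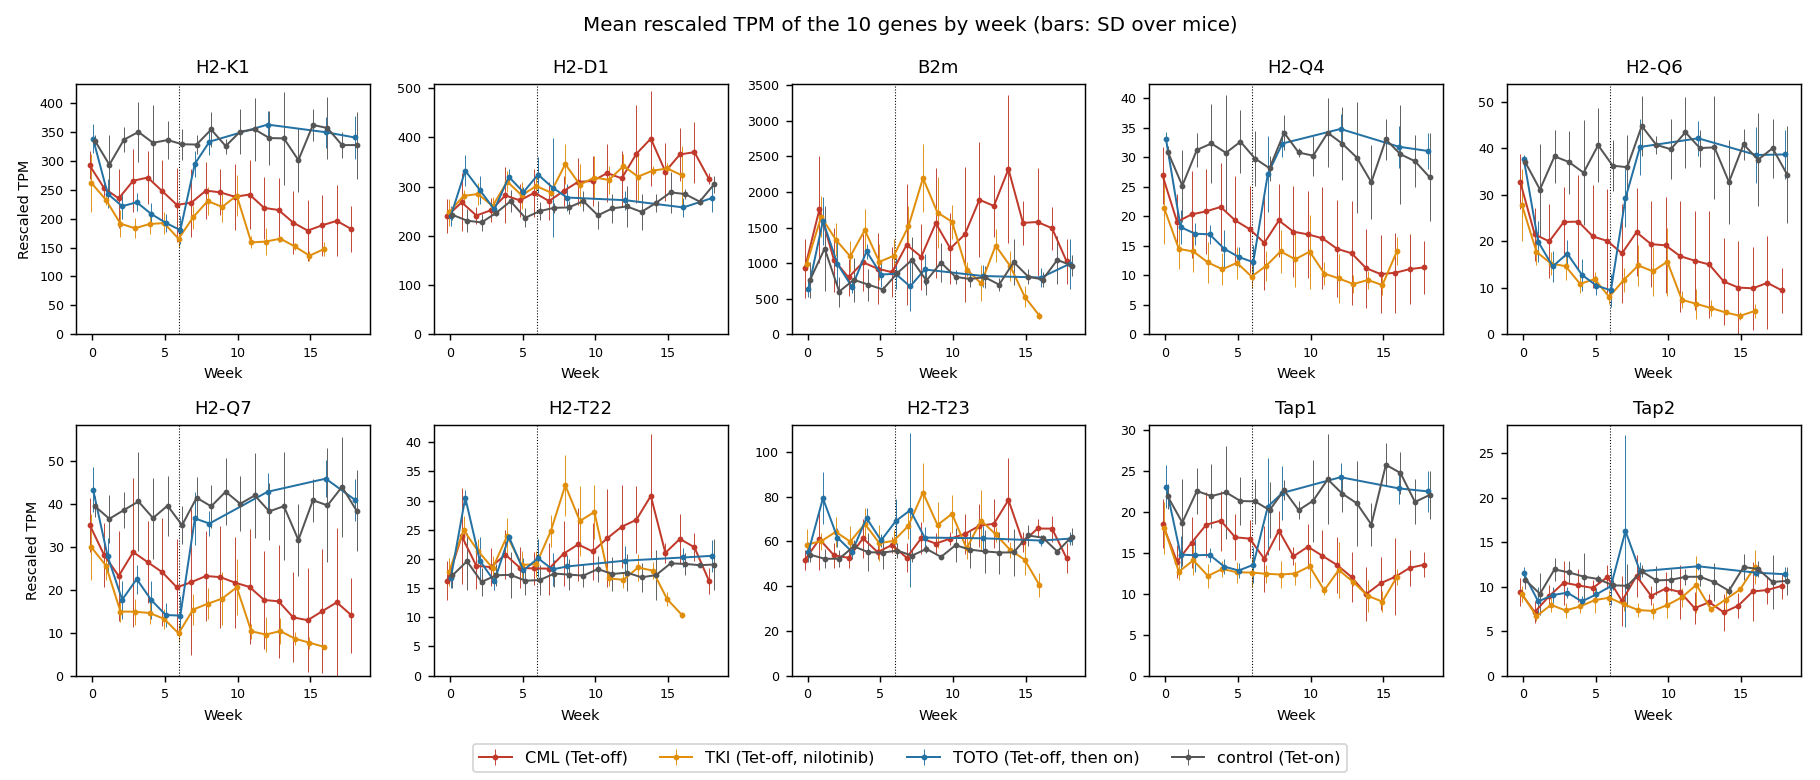
Rescaled TPM (linear axes from 0) of the 10 genes by week, as cohort means with SD over mice, with a dotted line at week 6; the week 17 library of control mouse 490 is left out. H2-K1 and the Q genes drop in the Tet-off cohorts and return in TOTO mice after week 6, while H2-D1 does not drop.

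Switching BCR-ABL on was followed, on the rescaled scale, by lower H2-K1 and much lower Q region transcripts, while H2-D1 was higher in the same libraries. H2-Q6 stood at 6.38 to 36.4 rescaled TPM with a median of 9.62 at week 6 in the 17 Tet-off mice, against 13.1 to 39.6 with a median of 33 at week 0. It was lower at week 6 in all 17 mice, with a log2 change of -1.43 ± 0.15 (adjusted p = 4.71e-08). CML mice 487 (36.4) and 541 (28.3) were still high at week 6, and TKI mouse 511 (13.1) was low at week 0 already, so the ranges overlap. H2-Q7 fell by 1.30 ± 0.12 and H2-Q4 by 0.97 ± 0.10 on the same scale, each in 17 of 17 mice. These 3 changes lay at the 0.303, 0.683 and 3.16 percentiles of all genes tested.

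H2-K1 ran from 142 to 314 rescaled TPM with a median of 175 at week 6, against 159 to 356 with a median of 294 at week 0. It was lower in 17 of 17 mice, with a change of -0.63 ± 0.09 (adjusted p = 1.47e-06). H2-D1 ran from 235 to 379 rescaled TPM with a median of 294.5 at week 6, against 206 to 302 with a median of 241 at week 0, and was higher in 15 of 17 mice (0.31 ± 0.07, adjusted p = 0.000321). On the rescaled scale the same mice thus moved apart in their 2 classical heavy chains, in opposite directions. Neither gene passed as deposited, or with the change of control mice subtracted, as given below.

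Of the other members at week 6, Tap1 passed as lower (-0.42 ± 0.08, lower in 15 of 17), and H2-T22 (0.16 ± 0.07, higher in 12 of 17) and H2-T23 (0.15 ± 0.06, 14 of 17) as higher. H2-T22 no longer passed without CML mouse 480, 541 or 542, TKI mouse 507 or 511, or TOTO mouse 482 (adjusted p = 0.0503 to 0.067). B2m stood at 0.13 ± 0.11 (adjusted p = 0.326) and Tap2 at 0.01 ± 0.07 (adjusted p = 0.886). Thus 5 of 10 members passed as lower and 3 as higher on the rescaled scale, where 45.9% and 27.6% of all genes did: the counts are near the background, and it is the size and the split that differ between members. Their median change was -0.20, against -0.11 over all genes.

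As deposited only the Q genes passed at week 6, with 3 of 10 members lower against 19.6% of all genes. H2-Q6 averaged 12.7 TPM at week 6 and 53.1 TPM at week 0, a change of -1.67 ± 0.35 (adjusted p = 0.000761). The median over all genes was -0.37 on this scale, which also turns the small rises of H2-T22 and H2-T23 to -0.07 and -0.08. H2-D1 stood at 0.07 ± 0.34 (adjusted p = 0.885) and H2-K1 at -0.86 ± 0.35 (adjusted p = 0.0605).

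The ratio of H2-K1 to H2-D1 within a library needs no rescaling. It averaged 0.819 ± 0.337 in CML mice, 0.55 ± 0.0613 in TKI mice and 0.555 ± 0.0439 in TOTO mice at week 6, against 1.24 ± 0.232, 1.06 ± 0.202 and 1.41 ± 0.0894 in the same cohorts at week 0 (SD, n = 6, 7 and 4). It was lower at week 6 in each of the 17 mice. Control mice stood at 1.32 ± 0.149 at week 6 and 1.38 ± 0.0578 at week 0 (n = 3). The lowest control library, week 17 of mouse 490 left out, was at 0.803. All 7 TKI and all 4 TOTO libraries of week 6 were below it, and 3 of the 6 CML libraries. In CML mouse 487, whose transgene was barely detected, the ratio was 1.34 at week 6.

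**Figure D2:**
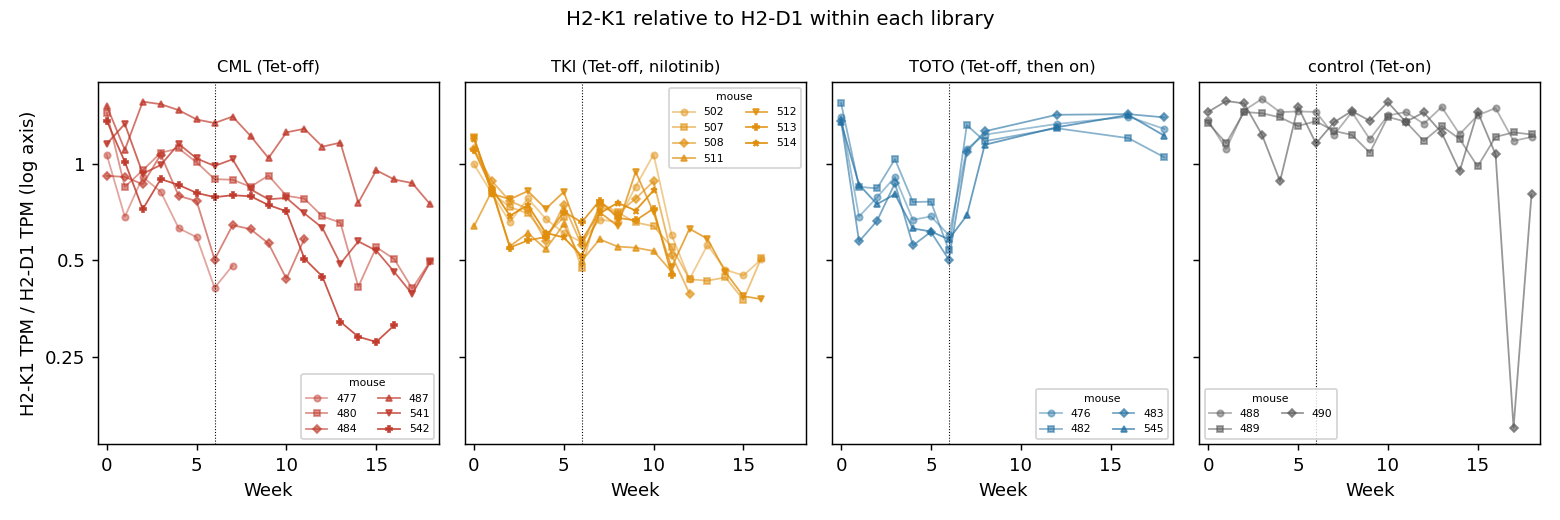
Ratio of H2-K1 to H2-D1 TPM (log axis) in each library by week, 1 panel per cohort and 1 line per mouse, with a dotted line at week 6; the control point at 0.151 is week 17 of mouse 490. TKI and TOTO mice are below the lowest control library (0.803) at week 6, and TOTO mice are above it in every library from week 8 on.

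The share of the Q genes among the heavy chain transcripts was lower as well. H2-Q4, H2-Q6 and H2-Q7 together made 8.81 ± 3.66% of the summed TPM of the 7 heavy chain members in CML mice, 4.83 ± 0.721% in TKI mice and 5.58 ± 1.03% in TOTO mice at week 6. The shares at week 0 were 13.6 ± 2.02%, 11.7 ± 2.12% and 15 ± 0.316%. Control mice held 13.4 ± 1.11% at week 6 and 14.2 ± 0.152% at week 0. The T genes took a larger share, 12%, 13.8% and 14.2% in CML, TKI and TOTO mice at week 6, against 9.78%, 11.5% and 9.41% at week 0 and 9.61% and 9.42% in control mice. The ratio of Tap1 to Tap2, the 2 subunits of 1 pump, was 1.52, 1.43 and 1.35 at week 6, against 1.98, 1.96 and 2 at week 0 in the 3 cohorts, and 2.09 and 2.04 in control mice. These ratios are given without a test.

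**Figure D3:**
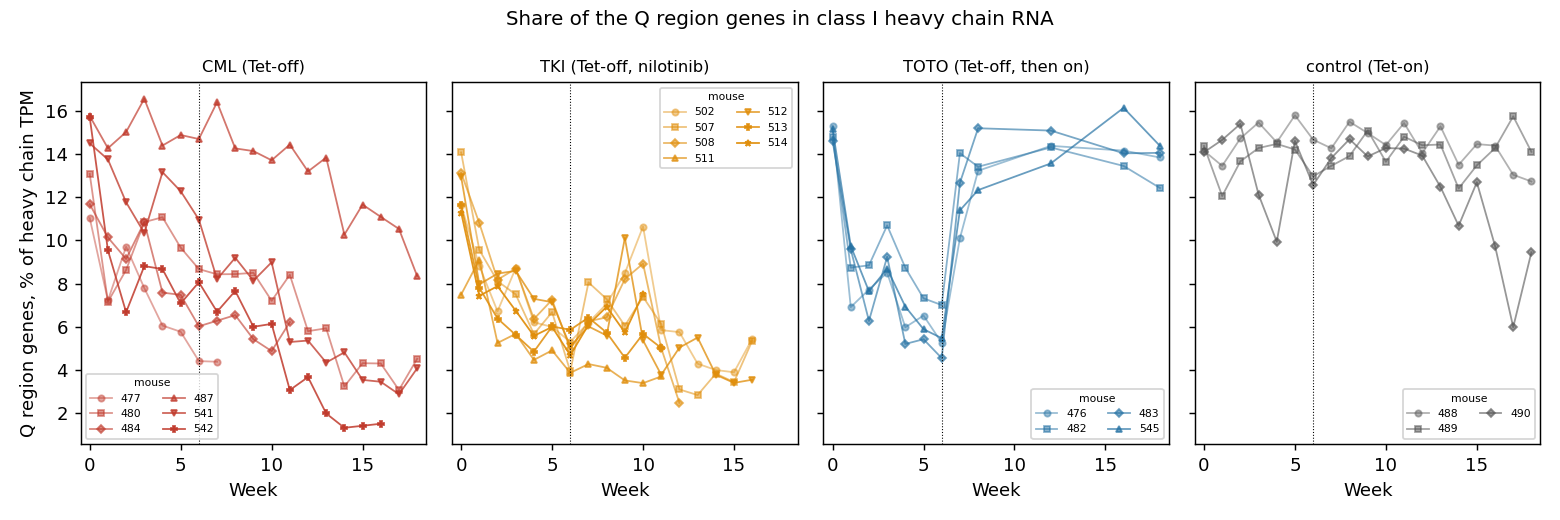
Summed TPM of H2-Q4, H2-Q6 and H2-Q7 as a percentage of the 7 heavy chain members in each library by week, 1 panel per cohort and 1 line per mouse, with a dotted line at week 6. Control mice average 14.2% at week 0 and 12.1% at week 18, TOTO mice 5.58% at week 6 and 13.5% at week 8, and the last TKI libraries 4.27%.

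Lymphocyte markers moved with the Q genes. All 6 B cell markers passed as lower at week 6 on both scales, with a rescaled median change of -1.11. Their summed level ran from 85.7 to 527 TPM in CML, 180 to 330 in TKI and 71 to 293 in TOTO mice at week 6, against 318 to 1894, 170 to 464 and 444 to 1990 TPM at week 0. Rescaled, all 6 T cell and all 6 natural killer cell markers also passed as lower. All 6 neutrophil, 5 of 5 secondary granule, 5 of 5 platelet and 5 of 6 monocyte markers passed as higher, and the other monocyte marker as lower. The summed neutrophil level was 657 to 5804, 3464 to 18480 and 3190 to 15650 TPM at week 6 in these cohorts, against 463 to 13670, 226 to 3143 and 902 to 3185 TPM at week 0. Over all genes 45.9% passed as lower and 27.6% as higher on the rescaled scale. In the 3 control mice the natural killer markers changed by -0.35 (Eomes) to -0.72 (Ncr1) over the same weeks, rescaled. Their T cell markers changed by -0.09 (Cd3d) to -0.37 (Lck), and their B cell markers by -0.06 (Cd22) to -0.17 (Pax5). None of these passed in control mice. No marker of these lists was listed at 0 in every library of a cohort at these weeks. Their part in the changes of the class I genes was not tested.

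Set against the control mice, the fall of the Q genes passed only after rescaling. With the change of control mice subtracted, H2-Q4 stood at -0.91 ± 0.25 (adjusted p = 0.0319), H2-Q6 at -1.40 ± 0.37 (0.0315) and H2-Q7 at -1.12 ± 0.32 (0.0335), H2-K1 at -0.60 ± 0.22 (0.068) and H2-D1 at 0.27 ± 0.17 (0.28). These 3 of 10 members as lower compare with 7.64% of all genes. As deposited no member passed, with 0.0181% of genes passing and 259 of 11055 genes at an unadjusted p under 0.05. Only 3 control mice carry this comparison: leaving out any 1 of them leaves no member past the threshold, while leaving out CML mouse 487 gives 4. Within batch 2021_E (2 Tet-off and 2 control mice) the rescaled difference of H2-Q6 was -0.33, and within 2022_A (10 and 1) -2.05. Batch 2022_B had no control mouse. With a batch term in the fit none of the 3 calls held: H2-Q6 stood at -1.15 (adjusted p = 0.0845), H2-Q4 at -0.77 (0.0943) and H2-Q7 at -0.85 (0.114). Without the pairing of weeks within mouse, or with week 1 as the start, no member passed either.

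The earliest library off tetracycline looked different from week 6. At week 1, B2m had gained 0.93 ± 0.14 (adjusted p = 6.72e-06, higher in 16 of 17) and H2-T22 0.57 ± 0.07 (17 of 17) on the rescaled scale. H2-Q6 (-0.67 ± 0.10) and H2-Q4 (-0.58 ± 0.09) had fallen in 16 of 17 mice, and Tap1 (-0.47 ± 0.06) and Tap2 (-0.39 ± 0.06) in all 17. Here 4 members passed as higher and 6 as lower, against 21.5% and 48.3% of all genes, and as deposited 2 as lower against 8.34%. That last count ran from 0 to 6 as 1 mouse was left out, and was 0 without any 1 of 10 mice. All 5 platelet markers (Pf4, Ppbp, Itga2b, Gp1bb and Gp9) passed as higher at week 1 on both scales, with a rescaled median change of 2.07. Control mice had a B2m change of 0.55 at week 1 (0.03 to 0.96, adjusted p = 0.493), and no gene passed in them (0% of 10304 rescaled; 896 at an unadjusted p under 0.05). Their rescaled medians went from 37.05 TPM at week 0 to 30.72 at week 1 for H2-Q6 and from 30.85 to 24.1 for H2-Q4. Those of Tap1 went from 21.89 to 17.77, of Tap2 from 10.57 to 8.022 and of H2-T22 from 16.02 to 17.79, with overlapping ranges. The difference from control mice at week 1 was not tested.

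In the untreated CML mice H2-K1 and the Q genes were also lower in the last library of each mouse, and H2-D1 was higher there, as it was in control mice. H2-Q6 ran from 2.05 to 15 rescaled TPM with a median of 6.64 in the last library of the 6 mice (weeks 7 to 18), against 24.7 to 39.6 with a median of 33.6 at week 0, with no overlap. Its change was -2.16 ± 0.28 (adjusted p = 8.22e-06), beside -1.70 ± 0.25 for H2-Q7, -1.33 ± 0.23 for H2-Q4, -0.80 ± 0.16 for H2-K1 and -0.58 ± 0.16 for Tap1, all lower in 6 of 6 mice. H2-D1 ran from 304 to 414 rescaled TPM at the end, against 206 to 302 at week 0, and rose by 0.47 ± 0.14 in 6 of 6 (adjusted p = 0.00773). In the 3 control mice H2-D1 stood at 291 to 324 rescaled TPM at week 18, against 232 to 254 at week 0, also without overlap, a change of 0.33 ± 0.20 (adjusted p = 0.72). The CML change exceeded it by 0.15 ± 0.24 (adjusted p = 0.797). The ratio of H2-K1 to H2-D1 ended at 0.52 ± 0.142, with a lowest value of 0.314 in mouse 542.

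On the rescaled scale 5 members passed as lower and 1 as higher at the last CML week, against 35.2% and 20% of all genes, and as deposited 4 as lower against 25.3%. The B cell markers summed to 7.08 to 260 TPM at the end, against 318 to 1894 TPM at week 0, and the neutrophil markers to 3837 to 32890, against 463 to 13670 TPM. Their part was not tested. With the change of control mice subtracted no member passed on either scale, where 0.0886% of genes did as deposited and 0.251% rescaled (286 and 2065 genes at an unadjusted p under 0.05). H2-Q6 then stood at -2.01 ± 0.49 (adjusted p = 0.068), and 2 members passed rescaled without CML mouse 487, or without TKI mouse 514, which enters through the shared spread. Its rescaled difference was -1.91 within batch 2021_E (2 CML and 2 control mice) and -1.88 within 2022_A (2 and 1). B2m ran from 579 to 1577 rescaled TPM at week 0 (6 mice), from 1607 to 3839 at week 14 (4 mice) and from 755 to 1378 at week 18 (3 mice), a course that was not tested. In mouse 487 the ratio of H2-K1 to H2-D1 was still 1.28 at week 11 and reached 0.747 at week 18, while its Q share was 8.36% at week 18, against 15.8% at week 0.

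Turning the transgene off again was followed by a return within 2 weeks. In the TOTO mice numbered 476, 482, 483 and 545, H2-K1 stood at 311, 321, 337 and 363 rescaled TPM at week 8, against 175, 196, 149 and 201 at week 6. H2-Q6 stood at 35, 39.6, 48.7 and 37.7 rescaled TPM at week 8, against 7.23, 14.2, 6.54 and 9.83 at week 6. Neither gene overlaps between the weeks. At week 0 the same mice had stood at 303, 356, 356 and 336 for H2-K1 and at 37.9, 37.8, 38.5 and 36.9 for H2-Q6, so both genes overlap between week 8 and week 0. H2-D1 went the other way, with 253, 274, 268 and 317 at week 8, against 291, 365, 296 and 345 at week 6, lower in each mouse.

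These TOTO changes were 2.03 ± 0.18 for H2-Q6 (adjusted p = 2.61e-08), 1.36 ± 0.13 for H2-Q4, 1.33 ± 0.16 for H2-Q7, 0.89 ± 0.10 for H2-K1 and 0.68 ± 0.10 for Tap1, each higher in 4 of 4 mice. Tap2 passed at 0.22 ± 0.09 and H2-D1 at -0.22 ± 0.10 (adjusted p = 0.0467). H2-D1 no longer passed without any 1 of 15 mice, among them TOTO mice 476, 482 and 483 (adjusted p = 0.0504 to 0.201), the others entering through the shared spread. Tap2 no longer passed without TOTO mouse 476, 483 or 545 (adjusted p = 0.104 to 0.186). B2m (0.10 ± 0.18), H2-T22 (-0.09 ± 0.08) and H2-T23 (-0.15 ± 0.10) did not pass. Rescaled, 6 members passed as higher and 1 as lower, against 43.4% and 27.1% of all genes, with a median of 0.45 beside 0.17. As deposited all 10 members passed as higher, H2-D1 included at 0.81, but 69.7% of genes did so too and the median over all genes was 0.96, and without mouse 476 the count is 6. This comparison shares its week 6 libraries with the induction above, so part of the opposite direction follows from shared values.

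The ratio of H2-K1 to H2-D1 shows the pace. It averaged 0.555 ± 0.0439 at week 6, 1.05 ± 0.26 at week 7, 1.2 ± 0.0525 at week 8, 1.33 ± 0.059 at week 12 and 1.23 ± 0.144 at week 18 (SD, n = 4). At week 7, mice 476, 482 and 483 stood at 1.11, 1.32 and 1.09, while mouse 545 was at 0.69 and reached 1.14 a week later. None of the 16 TOTO libraries from week 8 on was below the lowest control library. The B cell markers summed to 983 to 1668 TPM at week 8, against 71 to 293 TPM at week 6, and the neutrophil markers to 839 to 1179, against 3190 to 15650 TPM. Their part was not tested.

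The return held at week 18. Relative to week 6, H2-Q6 was higher by 1.97 ± 0.22 (adjusted p = 8.29e-05), H2-Q7 by 1.53 ± 0.20, H2-Q4 by 1.30 ± 0.17, H2-K1 by 0.92 ± 0.15 and Tap1 by 0.70 ± 0.13, each in 4 of 4 mice. These 5 members passed as higher on both scales, against 36.9% of genes rescaled and 22.6% as deposited. Compared with their own week 0 and with the change of control mice, no member of TOTO mice passed at week 18, and 0% of genes did on either scale (35 genes as deposited and 47 rescaled at an unadjusted p under 0.05). With 4 and 3 mice this does not show that the levels are equal.

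During nilotinib H2-K1 and the Q genes came part of the way back on the rescaled scale, and B2m and H2-T22 rose. At week 8, B2m ran from 1544 to 2748 rescaled TPM with a median of 2266 in the 7 TKI mice, against 785 to 1510 with a median of 1052 at week 6, without overlap. Its change was 0.98 ± 0.14 (adjusted p = 1.08e-05) and that of H2-T22 0.73 ± 0.06 (adjusted p = 9.84e-08), each higher in 7 of 7 mice. B2m stood at 2.99 ± 0.601 times the summed heavy chains at week 8, against 1.93 ± 0.403 at week 6 (SD, n = 7). H2-Q6 rose by 0.76 ± 0.13, H2-Q7 by 0.70 ± 0.12, H2-K1 by 0.47 ± 0.07, H2-Q4 by 0.46 ± 0.10, H2-T23 by 0.42 ± 0.08 and H2-D1 by 0.19 ± 0.07, while Tap2 fell by 0.22 ± 0.06 in 7 of 7. The H2-D1 change no longer passed without TKI mouse 502, 507, 508, 511 or 512 (adjusted p = 0.0521 to 0.105).

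Rescaled, 8 members passed as higher and 1 as lower at week 8 of the TKI mice, against 27.9% and 19% of all genes. As deposited, Tap1 (-0.64 ± 0.24) and Tap2 (-0.81 ± 0.23) alone passed, as lower, against 36.5% of genes, with a median over all genes of -0.42, and 1 member did without any 1 TKI mouse other than 514. H2-K1 (-0.19), H2-D1 (-0.47), H2-Q4 (-0.15) and H2-T23 (-0.23) had the opposite sign on that scale and did not pass. All 5 platelet markers passed as higher on the rescaled scale, with a median change of 0.89, as did all 6 B cell (0.41 to 0.58) and all 6 T cell markers (0.41 to 0.77), while as deposited no marker of these 3 lists passed. The platelet sum ran from 6838 to 10640 TPM at week 8, against 3490 to 11630 TPM at week 6. All 6 neutrophil markers passed as lower (1099 to 2426 TPM at week 8, against 3464 to 18480 TPM at week 6). Their part was not tested.

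At week 10, the end of the 4 weeks of drug, H2-Q7 ran from 9.94 to 27.4 rescaled TPM with a median of 18.7, against 7.19 to 13.7 with a median of 9.7 at week 6. It was higher in 7 of 7 mice (0.95 ± 0.13, adjusted p = 0.000187), as was H2-K1 (0.53 ± 0.08, adjusted p = 0.000275). H2-Q6 (0.75 ± 0.16) was higher in 6 of 7 and H2-Q4 (0.39 ± 0.13) in 4 of 7, and B2m (0.53 ± 0.13) and H2-T22 (0.53 ± 0.06) in all 7. H2-Q4 no longer passed without TKI mouse 502, 507, 508 or 514 (adjusted p = 0.064 to 0.102). H2-D1 stood at 0.07 ± 0.08 (adjusted p = 0.529). Rescaled, 7 members passed as higher and none as lower, against 23.9% and 14.8% of genes. As deposited H2-Q7 alone passed (0.93 ± 0.23, adjusted p = 0.0118), against 3.07% of genes. No member passed on that scale without TKI mouse 502 or 508, and 2 did without TKI mouse 511, CML mouse 484 or 542, or control mouse 488 or 490.

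The change under nilotinib was also tested against that of mice left untreated. In the 5 CML mice with both weeks no gene passed between week 10 and week 6 (0% on both scales; 673 genes as deposited and 949 rescaled at an unadjusted p under 0.05). The TKI change exceeded the CML change by 1.01 ± 0.19 for H2-Q7 (adjusted p = 0.00573), 1.04 ± 0.25 for H2-Q6 (0.0119), 0.52 ± 0.12 for H2-K1 (0.00948) and 0.34 ± 0.10 for H2-T22 (0.0215) on the rescaled scale. That is 4 of 10 members, against 12.5% of genes, and H2-T22 no longer passed without CML mouse 484 (adjusted p = 0.0561). The cohorts started from unequal levels of H2-Q7, H2-Q6 and H2-K1. At week 6 the rescaled medians of H2-Q7 were 9.696 TPM in TKI and 18.49 TPM in CML mice. Those of H2-Q6 were 7.785 and 19.9, and those of H2-K1 161.8 and 240.8. By week 10 the medians were close, in the same order at 18.7 and 18.75, 16.91 and 16.72, and 231.6 and 248.2. H2-T22 began alike, at 18.23 and 18.46, and stood at 26.6 and 23.22 at week 10. CML mouse 487 is among the 5, with their highest rescaled levels of H2-Q6 (36.37 TPM) and H2-K1 (313.8 TPM) at week 6, and no estimate without it is given here. As deposited no member passed, against 3.61% of genes in either direction (1371 of 10327 at an unadjusted p under 0.05). Within batch 2022_A (4 TKI and 1 CML mice) the rescaled difference was 1.25 for H2-Q7 and 0.49 for H2-K1, and within 2022_B (3 and 2) 0.72 and 0.48. At week 8 the same contrast gave 5 members as higher, H2-K1, B2m, H2-Q6, H2-Q7 and H2-T22, against 12.8% of genes rescaled. As deposited none passed and all of these but H2-Q6 had the opposite sign, with 10.5% of genes passing and 3478 of 10190 at an unadjusted p under 0.05.

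The changes after the transgene was shut off and under the drug were compared at week 8. The TOTO change exceeded the TKI change by 1.26 ± 0.22 for H2-Q6, 0.90 ± 0.17 for H2-Q4, 0.71 ± 0.12 for Tap1, 0.62 ± 0.20 for H2-Q7, 0.44 ± 0.11 for Tap2 and 0.41 ± 0.12 for H2-K1 on the rescaled scale. It was below the TKI change by 0.88 ± 0.23 for B2m, 0.82 ± 0.11 for H2-T22, 0.57 ± 0.13 for H2-T23 and 0.41 ± 0.12 for H2-D1, as signed differences of -0.88, -0.82, -0.57 and -0.41. All 10 members thus passed, 6 as higher and 4 as lower, against 36.7% and 23.9% of genes. As deposited all 10 differences were positive and 8 passed, against 80.9% of genes and a median difference of 1.41 over all genes. The 4 TOTO mice are all of batch 2022_A, while 3 TKI mice are of 2022_B. Against the CML change the TOTO change was higher for 5 members and lower for H2-D1 (37.4% and 22.9% of genes rescaled), and as deposited higher for 6 (48.5%). These contrasts share mice with those above.

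**Figure D4:**
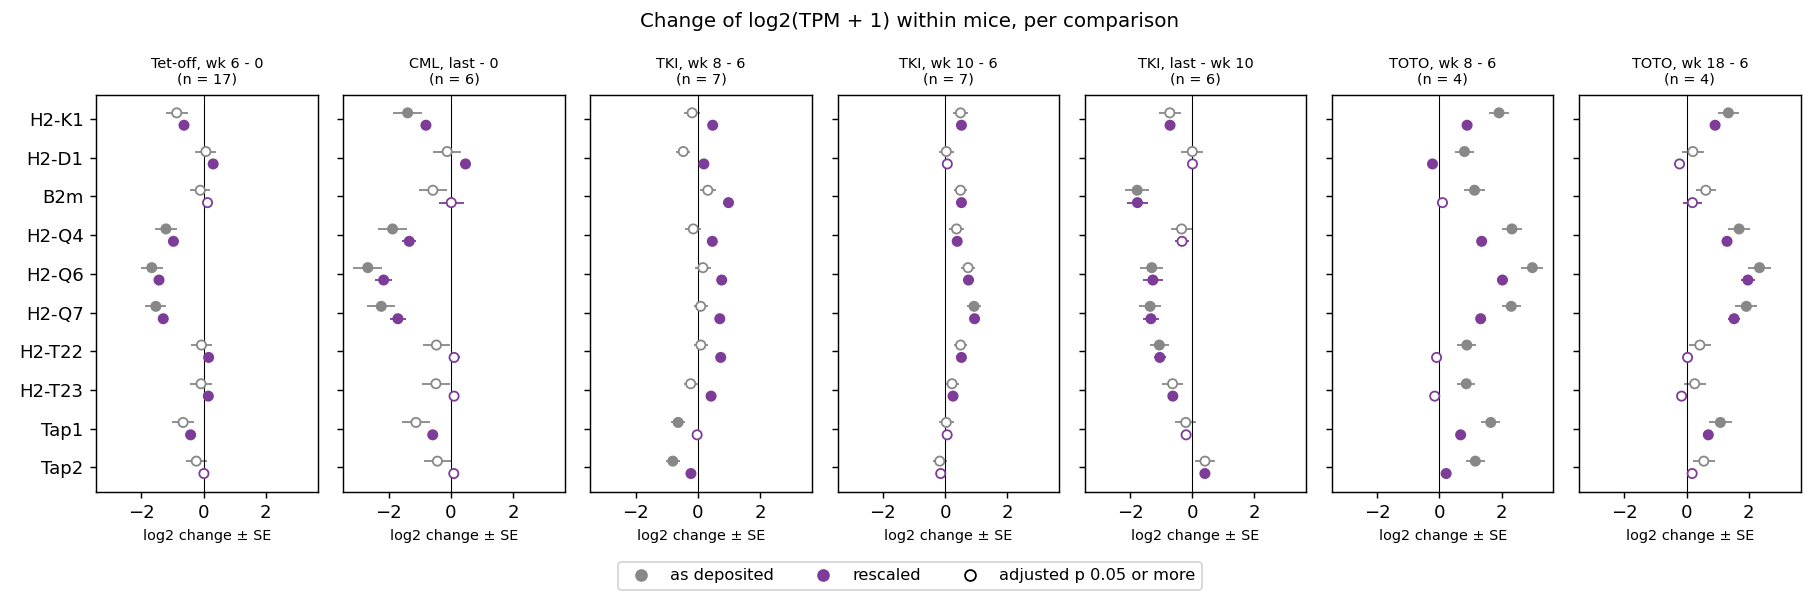
Log2 changes of TPM + 1 with standard errors of the 10 genes in 7 comparisons, as deposited (grey) and rescaled (purple); filled points passed at an adjusted p of 0.05, open ones did not. Rescaled, H2-Q6 lies at -1.43 in Tet-off mice at week 6 and at 2.03 in TOTO mice at week 8, and H2-D1 at 0.31 and -0.22.

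After nilotinib ended, H2-K1, B2m, the T genes, H2-Q6 and H2-Q7 were lower again. In the 6 TKI mice with a later library, B2m ran from 223 to 1101 rescaled TPM with a median of 529 in the last library (weeks 11 to 16), against 1332 to 1803 with a median of 1675 at week 10. The groups do not overlap, and the change was -1.76 ± 0.33 (adjusted p = 0.00054). The 3 mice that reached week 16 (502, 507 and 512) stood lowest at 311, 223 and 261. B2m then made 1.04 ± 0.628 times the summed heavy chains, against 2.31 ± 0.349 at week 10. H2-Q7 fell by 1.33 ± 0.26, H2-Q6 by 1.27 ± 0.32, H2-T22 by 1.04 ± 0.19, H2-K1 by 0.71 ± 0.17 and H2-T23 by 0.62 ± 0.14, all in 6 of 6 mice. Medians also fell in the 5 untreated CML mice from week 10 to the last library. Rescaled, H2-K1 went from 248.2 to 161.4 TPM, B2m from 1466 to 941.8 and H2-Q6 from 16.72 to 6.778. H2-Q7 went from 18.75 to 9.059, H2-T22 from 23.22 to 16.72 and H2-T23 from 60.43 to 57.56. The difference between TKI and CML mice over this step was not tested.

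H2-D1 stood at 0.01 ± 0.14 (adjusted p = 0.965) over this step, and Tap2 was higher by 0.41 ± 0.14 in 6 of 6. The ratio of H2-K1 to H2-D1 was 0.45 ± 0.0543 in the last libraries, and all 22 TKI libraries from week 11 on were below the lowest control library. Rescaled, 6 members passed as lower and 1 as higher, against 28.6% and 25.6% of genes. As deposited B2m, H2-Q6, H2-Q7 and H2-T22 passed as lower, against 15.8%, and 2 members did without mouse 502. The platelet markers summed to 240 to 7644 TPM in the last library, against 9074 to 15490 TPM at week 10, the B cell markers to 8.43 to 174, against 185 to 703 TPM, and the neutrophil markers to 12820 to 25350, against 1725 to 5579 TPM. Their part was not tested. Against week 0 and the control mice, H2-Q6 (-1.81) and H2-Q7 (-1.61) passed as lower in the last library of all 7 TKI mice, against 1.42% of genes rescaled. As deposited no member passed and 7.22% of genes did (5693 of 11293 at an unadjusted p under 0.05). The seventh mouse, 514, has no library after the drug and enters with week 10, where it stood highest (H2-Q6 16.9, H2-Q7 18.7 rescaled TPM). The other 6 ran up to 7.46 and 10.8. Control mice enter with week 18.

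The rest of the pathway did not follow the heavy chains as a block. At week 6 of induction, rescaled, 4 of 6 other heavy chain genes measured passed as lower, H2-Q5 (-1.55), H2-T10 (-0.82), H2-K2 (-0.68) and H2-M3 (-0.46), and 2 as higher. Of 6 genes of the loading complex and trimming 4 passed as higher, among them the chaperones Canx (0.69) and Calr (0.37) and the oxidoreductase Pdia3 (0.67), while the tapasin relative Tapbpl (-0.25) passed as lower. Of 6 immunoproteasome and activator genes Psme1 (0.17, and -0.06 as deposited) alone passed, as higher. All 3 constitutive catalytic subunits passed as higher, led by Psmb5 (0.75), though Psmb6 was at 0.12 rescaled and -0.11 as deposited. As deposited no gene of these last 3 lists passed. Over the same comparison all genes had a rescaled median of -0.11, with 45.9% passing as lower and 27.6% as higher. The lists are of 3 to 6 genes measured, and their counts were not tested against these shares.

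The regulators went mostly with H2-K1 and the Q genes at week 6 and in TOTO mice, and were mixed in TKI mice. At week 6, 10 of 13 passed as lower and none as higher on the rescaled scale, against 45.9% and 27.6% of all genes, led by the CRE-binding factor Creb1 (-0.72), the Y box factor subunit Nfya (-0.58), the X box factor Rfx5 (-0.86) and the class I transactivator Nlrc5 (-1.02), with a median of -0.42. In TOTO mice at week 8, 11 of 13 passed as higher, against 43.4%, led by Rfx5 (1.26), Nfya (0.54), Creb1 (0.66) and Nlrc5 (0.75), while Canx (-0.65), Pdia3 (-0.64) and Calr (-0.39) passed as lower on the rescaled scale but were at 0.34, 0.34 and 0.62 as deposited, and Tapbpl (0.63) passed as higher. In TKI mice at week 8, Nlrc5 (0.39), Creb1 (0.26) and Rfx5 (0.25) passed as higher and Irf1 (-0.29) and Rela (-0.28) as lower, with a median of 0.02 over the 13. At week 10, 4 of 13 passed as higher, Nlrc5 (0.63), Nfya (0.29), Creb1 (0.24) and Rfx5 (0.33), against 23.9% of all genes. After the drug 5 passed as lower, among them Rfx5 (-1.06) and Nfya (-0.51), and 2 as higher, among them Nfyb (0.44), against 28.6% and 25.6%. The TKI counts are near the share over all genes.

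MHC class II genes, which B cells and monocytes carry, had the same sign as H2-K1 and the Q genes: 9 of 10 passed as lower at week 6 (45.9% of all genes), 10 of 10 as higher in TOTO mice (43.4%) and in TKI mice (27.9%) at week 8, 4 of 10 as higher in TKI mice at week 10 (23.9%) and 10 of 10 as lower after the drug (28.6%), all rescaled. Of 12 genes tested in a list of class I receptors and related receptors, 9 passed as lower and 3 as higher at week 6. The list also holds Lilrb4a and Lilrb4b, which are not counted here as readers of class I. The changes were led by the natural killer receptor Klrd1 (-1.03), which forms the receptor of Qa-1, and by Klra9 (-1.06), Klra8 (-1.01) and Klra4 (-0.83). Control mice at week 6 stood at -0.17 for Klrd1, -0.41 for Klra9, -0.47 for Klra8 and -0.46 for Klra4 (adjusted p = 1 for each). The Tet-off change less that of control mice was -0.86 for Klrd1 (adjusted p = 0.0329), -0.65 for Klra9 (0.0736), -0.54 for Klra8 (0.142) and -0.37 for Klra4 (0.25). In TKI mice at week 10 the T cell co-receptor genes Cd8a (1.11) and Cd8b1 (1.14) were among 4 of 10 that passed as higher, against 23.9% of all genes. Of 21 interferon response genes, 10 passed as lower and 3 as higher at week 6, near or below the 45.9% and 27.6% of all genes.

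Across libraries the members fell into groups. Over 297 libraries, with the mean of each mouse subtracted on the rescaled log2 scale and the week 17 library of control mouse 490 left out, H2-K1 correlated with H2-Q7 at a Pearson r of 0.916, with H2-Q6 at 0.907 and with H2-Q4 at 0.878. H2-Q6 and H2-Q7 correlated at 0.946, and H2-K1 and H2-D1 at -0.361. Both pairs share transcript sequence, and the part that the division of shared reads has in these values was not tested. H2-T22 went with B2m (0.803) and H2-T23 (0.792), H2-D1 with H2-T23 (0.674), Tap1 with H2-Q4 (0.828) and with Tap2 (0.62), and B2m against Tap2 (-0.751). Libraries of 1 mouse and the size factors are shared between points, and no test is given. That library alone changes several of these: with it H2-K1 and H2-D1 correlated at 0.031 and Tap1 and Tap2 at -0.028.

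The genes most like the mean of the 10 members, of 5362 that are not members and have a mean of at least 5 TPM, were Mef2c (0.838), Cd72 (0.836), Fcer2a (0.823), Fcmr (0.820) and Gimap8 (0.814) over all libraries. Without the week 17 library of mouse 490 they were Il21r (0.853), Gimap1 (0.848), Mef2c (0.841), Ppp1r16b (0.837) and Cd72 (0.836).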

How the data were processed

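Whole blood of 20 mice gave RNA-seq libraries (ribosomal RNA depleted, strand-specific), 1 per mouse and week. The authors deposited 1 table of TPM for 14605 genes, with reads mapped to GRCm39 by STAR and quantified by Salmon, per the submitters' processing notes, which give no versions; no column was left without a sample. GENCODE M39 named 14537 of the genes. Depth is unknown from TPM, whose sums ran from 989100 to 999879 per library, so no counting interval is given.

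Changes within mouse of log2(TPM + 1), between weeks, were tested in R 4.3.3 with limma 3.58.1 (trended variance, 1 term per cohort, two-sided), over genes with a mean of at least 1 TPM in the fit, with Benjamini-Hochberg adjustment over all of them and a threshold of 0.05. Fits that compare cohorts take the difference of their terms. Each was repeated on TPM divided by median-ratio size factors over 5313 genes (mean of at least 5 TPM, listed in at least 95% of libraries, haemoglobin left out). The scripts were tested on simulated data with 200 changed genes. Tables used pandas 2.3.3 and numpy 2.4.6, and figures matplotlib 3.10.9, under Python 3.11.15.

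Weeks were paired because the labels give the animal of each library. Libraries of the same mouse at weeks 0 and 6 deviated from their group means with a mean correlation of 0.199 (-0.498 to 0.549, 20 mice), against -0.0103 between mice (380 pairs).

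All 10 members were named; of other lists, at most the 4 genes with the smallest p among those past the threshold on the rescaled scale. The members, lists and comparisons were chosen with earlier results of these data known. Alternatives to the rescaled fits, and correlations without the week 17 library of mouse 490, were added after the data were seen. Promoters come from RefSeq on GRCm38.p6, an older build than the table's, and are given only with their own coordinates.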

Additional observations from a re-analysis of the deposited data

Results flagged for a closer look

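In 13 of 140 groups of 4 to 10 mice, 1 mouse lay far from the others; chance gives about 1 in 20 groups. TKI mouse 514 stood above the other TKI mice at week 8 against week 6 as deposited, with log2 changes of 0.91 for H2-K1, 0.95 for H2-T22 and 0.43 for Tap1, while mouse 513 was low for H2-K1 after rescaling at 0.097. TKI mouse 511 stood below the others at week 10 as deposited, at -0.24 for H2-K1, -0.71 for H2-Q6 and -0.80 for Tap1. After rescaling, CML mouse 542 had the lowest Tap1 change to its last week at -1.48, and TKI mouse 512 the highest Tap2 change after week 10 at 1.17. Without that mouse the change of Tap2 is 0.25 with an adjusted p of 0.103 in limma. Of the TOTO mice after rescaling, mouse 483 stood above the others for H2-K1 at week 18 against week 6 (1.40), and mouse 482 below them for Tap1 (0.27) and Tap2 (-0.32). Mouse 482 also stood above them for H2-D1 at week 18 against week 0 (0.43).

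Changes differed between cohorts by limma's test of the difference itself. After rescaling this held for 3 members between Tet-off and control mice at week 6, 5 between TKI and CML mice at week 8 and 4 at week 10, 6 between TOTO and CML mice, 10 between TOTO and TKI mice, and 2 between TKI and control mice at the last week. As deposited it held for 6 members between TOTO and CML mice and 8 between TOTO and TKI mice.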

How the results depend on the processing

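Scale was the choice that moved most. Rescaling moved the count of members past the threshold to 10 (2 as deposited) at week 1, 8 (3) at week 6, 3 (0) for Tet-off minus control, 9 (2) for TKI mice at week 8, 7 (1) at week 10, 4 (0) for TKI minus CML and 7 (4) for TKI mice after the drug. It turned the sign of H2-D1 (0.24) and H2-T23 (0.21) at week 1, of H2-T22 (0.16) and H2-T23 (0.15) at week 6, of H2-K1 (0.47), H2-D1 (0.19), H2-Q4 (0.46) and H2-T23 (0.42) in TKI mice at week 8, and of H2-D1 (-0.22), H2-T22 (-0.091) and H2-T23 (-0.15) in TOTO mice at week 8. TPM without haemoglobin genes and Rn7s2 gave 8 members at week 1, 5 at week 6, 8 for TKI mice at week 8, where H2-K1 (0.24) and H2-T23 (0.19) turned positive, 6 at week 10, 4 for TKI minus CML and 6 for TOTO mice at week 8.

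The week 1 count of 2 as deposited was 0 with a pseudocount of 0.1, and 1 each with no filter, with a batch term and with H2-Q6 and H2-Q7 summed. With week 1 as the start, Tap2 stood at 0.65 at week 6 as deposited, and, rescaled, B2m at -0.81, H2-T22 at -0.40, H2-T23 at -0.057 and Tap1 at 0.054, all of opposite sign, and Tet-off minus control gave 0. Week 9 in place of week 10 gave 0 for TKI mice and 2 for TKI minus CML rescaled. A batch term gave 0 for Tet-off minus control and 2 for CML minus control, both rescaled, and 1 for TOTO mice at week 18.

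Without the pairing of weeks within mouse (no replicate block) the count was 6 at week 1, 1 for TKI mice at week 8, 0 at week 10 (4 rescaled), 3 for TOTO mice at week 18, and 0 rescaled for both Tet-off minus control and TKI minus CML.

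Leaving out 1 mouse at a time gave 0 to 6 members at week 1 (10 to 10 rescaled), 3 to 4 at week 6 (7 to 9), 0 to 0 for Tet-off minus control (0 to 4), 0 to 0 for CML minus control (0 to 2), 1 to 3 for TKI mice at week 8 (8 to 9), 0 to 2 at week 10 (6 to 7), 0 to 0 for TKI minus CML (3 to 5), 2 to 5 for TKI mice after the drug (6 to 7), 6 to 10 for TOTO mice at week 8 (5 to 7), 4 to 6 at week 18 (5 to 6) and 0 to 0 for TOTO minus control (0 to 0). The week 1 count as deposited was 0 without TOTO mouse 476 and 6 without TKI mouse 511. The causes were not tested. Levels near 10 TPM, such as Tap2 and the Q genes at week 6, are understated most by the added 1 TPM, and control comparisons rest on 3 mice.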
